A study of Mus musculus with 931 samples.

Results

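Glycolysis splits 1 glucose molecule into pyruvate through a fixed order of enzymes, and 10 genes of that order are described here across islet cell development in the mouse: Gpi1 (glucose-6-phosphate isomerase), Pfkl and Pfkp (the liver and platelet forms of phosphofructokinase), Aldoa (aldolase A), Tpi1 (triosephosphate isomerase), Gapdh, Pgk1 (phosphoglycerate kinase), Eno1 and Eno2 (the α and γ enolases) and Pkm (the muscle pyruvate kinase gene). They were taken by gene symbol from a count table of bulk libraries and a count table of single cells, each with 40824 gene rows, and all 10 had a row in both and passed the filter on low counts in every comparison. Sequencing covered E17.5 (embryonic day) and P0, P3, P9, P15, P18 and P60 (postnatal days). Proliferative-enriched β cells were Ins1-RFP+ cells chosen by single-cell RT-qPCR for at least 2 of Pbk, Foxm1 and Cdk1, with 9 cells in 1 batch at P0 and 12 cells in 1 batch at P9. The α cells came from Gcg-Cre, Rosa-RFP mice on a mixed C57BL/6, CBA/J and C3H background, with 328 cells in 20 batches and none collected at P3. The β cells came from Ins1-RFP mice on a mixed C57BL/6 and C3H background, with 538 unselected single cells in 25 batches and 14 bulk libraries of sorted cells, 2 per stage. Cell type and mouse line therefore cannot be told apart. The red protein marks α cells through past activity of a glucagon-driven Cre and β cells through an insulin promoter. The labels give a batch for each cell but no animal, so p-values measure the spread between labelled batches or libraries, which may be technical.

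In β cells glycolysis is the route by which blood glucose sets insulin release. Phosphofructokinase is its main regulated step in most cells, and most of the pyruvate enters mitochondria in a cell that keeps lactate dehydrogenase (Ldha) low. Hexokinase 1 (Hk1) is also kept low in adult β cells. Several steps can be served by more than 1 gene. Eno1 is the widespread enolase, Eno2 is typical of neurons and endocrine cells and Eno3 of muscle, while Pfkl, Pfkm and Pfkp encode subunits that combine into tetramers.

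Levels are given as CPM, a gene's reads per 1 M reads of genes with TMM scaling, and log2 changes are from edgeR's quasi-likelihood test with Benjamini-Hochberg adjustment over all genes. A gene is called at an adjusted p under 0.05. Bulk libraries held 10.3 M to 21.4 M reads, batches of single cells 5.96 M to 49.1 M and cells 0.521 M to 1.80 M. The summed β markers (Ins1, Ins2, Iapp, Pdx1, Nkx6-1 and Slc2a2) ranged over batches from 447 to 5844 CPM in α cells and from 175711 to 799585 CPM in β cells. Hormone transcripts took a growing share of the reads: 22.9% at P60 against 9.12% at E17.5 in bulk β cells, 43.5% against 14.8% in single α cells and 54.0% against 26.1% in single β cells. Without the reads of the hormone genes every called P60 change of the 10 genes kept its sign. Fewer cells of a type and less RNA per cell cannot be told apart in the bulk libraries.

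The windows around the start sites of 2 genes that were higher at P60 and of 2 that were lower are shown first. They are RefSeq windows on GRCm38.p6, each 250 bases before to 50 after an annotated start, read on the minus strand from 5′ to 3′, and capitals mark GC boxes (GGGCGG on either strand), which may overlap. All 4 genes lie on the minus strand: Eno2 (ENSMUSG00000004267) at chr6:124760053-124769673, Pfkp (ENSMUSG00000021196) at chr13:6579768-6648777, Pfkl (ENSMUSG00000020277) at chr10:77986947-78010083 and Tpi1 (ENSMUSG00000023456) at chr6:124810586-124814296 in the GENCODE vM21 annotation.
Eno2: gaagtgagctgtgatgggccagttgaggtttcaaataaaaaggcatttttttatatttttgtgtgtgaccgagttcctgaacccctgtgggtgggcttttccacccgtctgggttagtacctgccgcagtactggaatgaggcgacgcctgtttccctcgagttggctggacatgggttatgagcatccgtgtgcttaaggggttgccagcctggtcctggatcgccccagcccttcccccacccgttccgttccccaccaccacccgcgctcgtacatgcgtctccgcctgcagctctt
Pfkp: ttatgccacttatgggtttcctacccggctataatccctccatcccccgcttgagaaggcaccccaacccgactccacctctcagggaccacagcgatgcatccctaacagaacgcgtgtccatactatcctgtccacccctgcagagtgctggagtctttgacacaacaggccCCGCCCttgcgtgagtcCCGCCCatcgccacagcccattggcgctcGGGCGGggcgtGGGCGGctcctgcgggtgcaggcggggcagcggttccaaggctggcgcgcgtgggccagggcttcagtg
Pfkl: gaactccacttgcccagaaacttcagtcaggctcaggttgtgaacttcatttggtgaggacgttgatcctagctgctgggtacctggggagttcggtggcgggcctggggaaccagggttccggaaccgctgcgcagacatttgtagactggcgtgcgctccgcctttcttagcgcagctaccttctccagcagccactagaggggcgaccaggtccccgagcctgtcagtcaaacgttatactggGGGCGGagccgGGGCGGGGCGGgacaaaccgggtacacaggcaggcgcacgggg
Tpi1: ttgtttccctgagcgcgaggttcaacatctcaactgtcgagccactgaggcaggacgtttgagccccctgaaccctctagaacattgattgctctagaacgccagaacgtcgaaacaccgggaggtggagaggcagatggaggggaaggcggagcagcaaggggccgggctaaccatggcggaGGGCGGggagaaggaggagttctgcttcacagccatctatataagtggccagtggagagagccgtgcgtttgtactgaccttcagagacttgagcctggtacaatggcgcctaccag
The Eno2 window (chr6:124769624-124769923) held 0 GC boxes, the Pfkp window (chr13:6648722-6649021) 4, the Pfkl window (chr10:78009758-78010057) 3 and the Tpi1 window (chr6:124814109-124814408) 1. Over the 10 genes, 10 of 15 annotated windows held a GC box (8 of the 10 genes), against 35.7% of all 32851 windows. The 15 are not separate, since 2 windows of Aldoa and 2 of Eno1 overlap and share their boxes. The core of the hypoxia response element, ACGTG on either strand, stood in 5 of the 15 windows (4 of the 10 genes), against 19.6% of all, and in none of the 4 shown. Among the 2 genes higher at P60, the window of Pfkp held the most of the 4 and that of Eno2 the fewest.

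Bulk β cells, which ask how the sorted population differs between the fetal and the adult islet, held far more Eno2 and Pfkp mRNA at P60 than at E17.5 and less Pfkl. Between P60 and E17.5, 5 of the 10 genes were called, 3 higher (Eno2, Pfkp and Aldoa) and 2 lower (Pfkl and Tpi1), where 29.1% of all 16086 genes tested were called. The median log2 change of the 10 was -0.21, against -0.03 over all genes. Over any stage 4 of the 10 were called (Pfkp, Eno2, Pfkl and Aldoa), against 31.2% of all genes.

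Markers of other cells moved in the same P60 comparison. Those of acinar cells were higher (8 of 10 called, median log2 change 3.85), with summed levels of 53925 and 19064 CPM at P60, against 6107 and 1815 CPM at E17.5. Mesenchymal (5 of 5), duct (4 of 4), endothelial (3 of 4), erythroid (3 of 5) and cycling markers (6 of 6) were lower, with median log2 changes of -4.50, -2.98, -2.92, -4.98 and -3.21 in the same order. The summed mesenchymal markers stood at 12.7 and 2.43 CPM at P60, against 82.5 and 176 CPM at E17.5, the duct markers at 50.8 and 47.3 CPM, against 148 and 224 CPM, and the cycling markers at 47.9 and 47.6 CPM, against 542 and 300.5 CPM. Their part in the bulk changes of the glycolysis genes was not tested. In single β cells, 1 of 9 acinar markers was called (higher) in that comparison, with 8 of the 9 changes positive and a median log2 change of 2.16. Of the duct markers 1 of 4 was called (lower, median -5.03). Of the mesenchymal and cycling markers 0 of 5 and 0 of 6 were called, with median log2 changes of -2.32 and -0.71.

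Eno2, which makes the enolase form typical of neuroendocrine cells, had 8.20 and 9.22 CPM in the E17.5 libraries, 28.5 and 13.9 in those of P0, 11.9 and 16.0 for P3, 28.0 and 23.9 for P9, 26.3 and 63.1 for P15, 31.1 and 38.3 for P18, and 83.5 and 71.5 in the P60 libraries. Both P60 libraries lay above every other library and both E17.5 libraries below every other. The log2 change of Eno2 at P60 against E17.5 was 3.15 (SE 0.41, adjusted p = 0.000256).

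Pfkp, a phosphofructokinase subunit, had 3.60 and 2.87 CPM in the E17.5 libraries, 25.2 and 27.5 in those of P0, 6.37 and 7.06 for P3, 9.87 and 13.6 for P9, 24.5 and 23.7 for P15, 14.3 and 15.4 for P18, and 20.9 and 19.7 in the P60 libraries. The 2 libraries of a stage lay close to each other, and the course had a high point at P0 before the low values of P3. The log2 change was 2.64 (SE 0.22, adjusted p = 1.58e-05) at P60 and 3.02 (adjusted p = 0.000193) at P0, both against the same E17.5 libraries. At P0 the bulk level was 26.4 ± 1.63 CPM (SD, n = 2), while single β cells at P0 averaged 3.70 ± 2.39 CPM (SD, n = 3 batches) in a table made and scaled separately. The summed mesenchymal markers (Col1a1, Col1a2, Col3a1, Vim and Pdgfrb) stood at 398 and 1167 CPM in the bulk P0 libraries, against 82.5 and 176 CPM at E17.5, and at 1190.1 CPM in P3 library 1, where Pfkp had 6.37 CPM. The summed endothelial markers (Pecam1, Cdh5, Kdr and Plvap) stood at 135 and 43.5 CPM at P0, against 37.7 and 32.9 CPM at E17.5. Immune and erythroid markers had positive log2 changes at P0 in 4 of 4 and 5 of 5 genes (medians 2.72 and 2.63), with 0 called. The part of other cell types in the P0 level of Pfkp was not tested. Pfkp shares 748 of its 4663 exon bases with Pitrm1 on the opposite strand, and the strand setting of the counting is not given in the sources used here. Pitrm1, a mitochondrial protease, was higher in the bulk by a log2 change of 0.52 (adjusted p = 0.0239), with 68.6 CPM at P60 against 48.0 at E17.5. Whether some reads of either gene stem from the other was not tested.

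Pfkl, the phosphofructokinase subunit most abundant in liver, had 66.8 and 53.4 CPM at P60, against 105 and 119 CPM at E17.5. The groups did not overlap, and the log2 change was -0.90 (SE 0.16, adjusted p = 0.00145). Aldoa, which splits fructose bisphosphate, had 373 and 357 CPM at P60, against 211 and 263 CPM at E17.5. Its P60 libraries stood above those of all other stages, which ranged from 172 to 290.4 CPM, and the change of 0.62 (SE 0.18, adjusted p = 0.0235) was no longer called without E17.5 library 1 or without either P60 library (log2 change 0.47 to 0.79, adjusted p 0.0417 to 0.18 over the 4 libraries left out). Tpi1, which interconverts the 2 triose phosphates, had 90.8 and 94.5 CPM at P60, against 138 and 139.7 CPM at E17.5. These groups did not overlap either, but the change of -0.58 (SE 0.17, adjusted p = 0.021) missed the threshold whenever 1 of the 4 libraries was left out (adjusted p up to 0.114).

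Of the other 5 genes none passed the test between P60 and E17.5. Gapdh, which makes NADH at the first payoff step, had 230.0 and 244 CPM at P60, against 317 and 364 CPM at E17.5, and its log2 change of -0.52 had an adjusted p of 0.0517. Eno1 had 111 and 93.1 CPM at P60, against 126 and 164 CPM at E17.5 (log2 change -0.51). Pkm, the last enzyme, had 683 and 738 CPM at P60, against 719 and 888 CPM at E17.5, and those groups overlapped. The log2 changes of Gpi1, Pkm and Pgk1 were -0.25, -0.18 and 0.01. Gpi1 shares 741 exon bases with Gm26762 on the opposite strand. Pkm shares 767 with Gm49759 on the same strand, which has no row in the count tables. The effect of these overlaps on the counts was not tested.

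**Figure D1:**
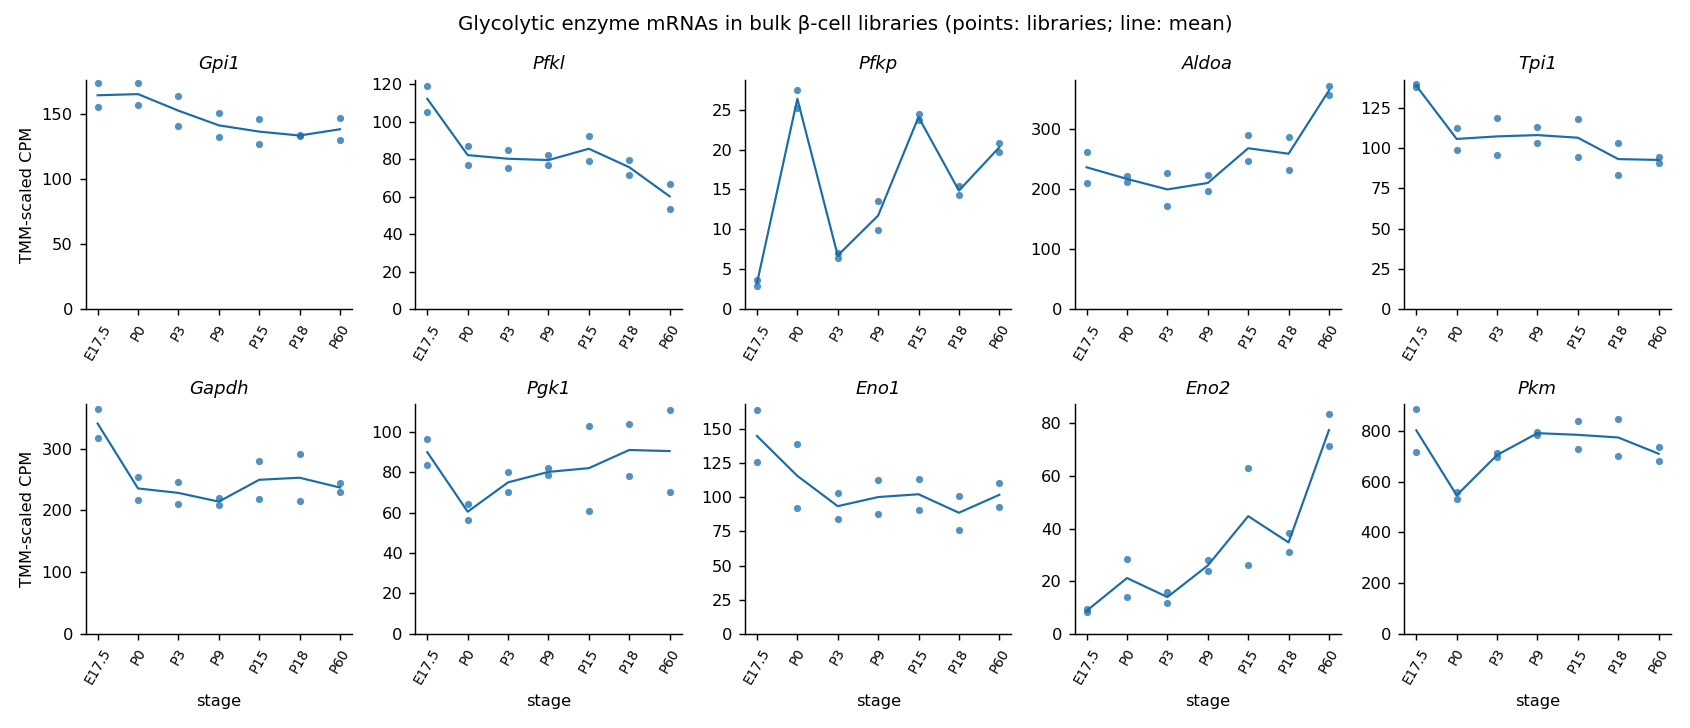
Levels of the 10 glycolytic genes in bulk β cells, in TMM-scaled CPM on linear axes that differ between genes, by stage from E17.5 to P60; points are libraries (2 per stage) and lines join stage means. Eno2 reaches 83.5 and 71.5 CPM at P60, Pfkp has high points at P0 and P15, and Aldoa is highest at P60 (373 and 357 CPM).

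The timing within these libraries differed between the called genes. At P9 against E17.5, 3 of the 10 were called, against 8.18% of all genes: Eno2 (1.58, adjusted p = 0.0317) and Pfkp (1.85, adjusted p = 0.000562) higher and Gapdh (-0.67, adjusted p = 0.0463) lower, but the calls of Eno2 and Gapdh ended without any 1 of the 4 libraries. At P0 against E17.5 edgeR called 1, Pfkp, against 6.34% of all genes. Between P60 and P9, 3 were called, against 16.2% of all genes, all higher: Aldoa (0.79, adjusted p = 0.0148), Eno2 (1.58, adjusted p = 0.0189) and Pfkp (0.80, adjusted p = 0.0224). The calls of Aldoa and Eno2 ended without any 1 of those 4 libraries, and that of Pfkp without either P60 library or P9 library 1 (log2 change down to 0.59). The comparisons with E17.5 share its libraries, as those with P9 share theirs.

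In single β cells, where reads were summed per batch, the same question gave 7 called genes of 10 between P60 and E17.5, against 6.97% of all 18537 genes tested. Eno2, Pfkp and Aldoa were higher at P60, and Eno1, Pfkl, Tpi1 and Gapdh were lower. The median log2 change of the 10 was -0.45, against -0.01 over all genes. Over any stage 5 were called (Eno2, Aldoa, Pfkl, Pfkp and Eno1), against 7.09% of all genes.

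Eno2 had 74.4, 73.0, 46.5, 69.7 and 87.3 CPM in the 5 β batches of P60, against 5.22, 7.90 and 5.42 CPM in the 3 of E17.5. The groups lay far apart, with a log2 change of 3.48 (SE 0.54, adjusted p = 2.65e-05). The stage means were 6.18 ± 1.49 CPM (E17.5), 6.33 ± 2.98 for P0, 12.2 ± 3.37 for P3, 12.2 ± 3.89 for P9, then 21.6 ± 7.55 for P15, 48.6 ± 11.5 for P18 and 70.2 ± 14.8 in P60 batches (SD, n = 3, 3, 5, 3, 3, 3 and 5 batches). E17.5 and P0 did not differ beyond their spread, nor did P3 and P9.

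Pfkp had 24.5, 30.1, 10.8, 28.2 and 18.3 CPM in the β batches of P60, against 0.237, 2.48 and 1.33 CPM at E17.5. No P60 batch came near an E17.5 batch, and the log2 change was 3.97 (SE 0.83, adjusted p = 0.00149). Pitrm1, which overlaps it, had a log2 change of 0.47 (adjusted p = 0.361) in the same comparison. Aldoa had 496, 463, 407, 456 and 494 CPM at P60, against 354, 270.4 and 327 CPM at E17.5. All P60 batches stood above all E17.5 batches, by a log2 change of 0.54 (SE 0.15, adjusted p = 0.0173). The call was lost when E17.5 batch 2 or batch 3 was left out (adjusted p up to 0.116), and the direction turned to -0.24 where each cell was weighted equally and CPM were not TMM-scaled, a scale on which the median of all genes was -0.42, and to -0.27 with the mean of log2 values, where that median was -0.22.

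Eno1 had 64.5, 62.1, 64.0, 49.3 and 52.6 CPM in the β batches of P60, against 104, 113 and 105 CPM at E17.5. It fell without overlap, by 0.86 on the log2 scale (SE 0.19, adjusted p = 0.00343), and remained called whichever batch was left out. Reads of Eno1 could in part belong to its retrogene Eno1b, a near-identical copy, which was listed at 2.79 ± 1.05 CPM at P60 and 3.56 ± 0.259 CPM at E17.5 (SD, n = 5 and 3). Pfkl had 58.0, 54.5, 59.8, 50.04 and 58.9 CPM at P60, against 114, 99.05 and 125 CPM at E17.5. The 2 groups did not overlap and the log2 change was -0.99 (SE 0.22, adjusted p = 0.00319), with the call lost without E17.5 batch 3 (adjusted p = 0.0628).

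Tpi1 had 172, 122, 134, 117 and 119.6 CPM in the β batches of P60, against 206, 184 and 228 CPM at E17.5. Every P60 batch was lower, with a log2 change of -0.64 (SE 0.17, adjusted p = 0.0122), and the call ended without E17.5 batch 1 or 3 (adjusted p up to 0.084). Gapdh had 99.7, 89.5, 93.6, 86.0 and 83.6 CPM at P60, against 158, 96.8 and 142.6 CPM at E17.5. Here the groups overlapped at E17.5 batch 2. Its log2 change of -0.55 (SE 0.17, adjusted p = 0.0471) stayed called only without E17.5 batch 2 or P60 batch 1, and was lost (adjusted p up to 0.339) without any other of the 8 batches.

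Pkm had 719, 649.5, 759.7, 690.2 and 704 CPM at P60, against 1164, 906 and 844 CPM at E17.5. All P60 batches were lower, but the log2 change of -0.44 missed the threshold (adjusted p = 0.061). Pkm makes both the M1 and the M2 form by alternative splicing, which gene counts do not resolve. Between P60 and P9 the β cells gave 2 calls, against 0.626% of all genes, Aldoa (0.82, adjusted p = 0.00221) and Eno2 (2.52, adjusted p = 0.00705, lost without P9 batch 1 or 3). Between P9 and E17.5, 0 of the 10 were called by edgeR, against 1.25% of all genes, while 7 had an unadjusted p under 0.05 and DESeq2 called 2.

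Batches were sorted by FACS or picked by hand, and the method was a term of the fit. All 7 called β changes had the same sign within FACS batches (2 at P60 and 1 at E17.5) and within hand-picked batches (3 and 2). The 7 were called on these same batches, so the shared sign is no separate test. With so few batches, FACS alone gave 0 of 10 calls at P60 against E17.5 and hand-picking alone gave 2, Eno2 and Pfkp. The log2 change of Eno2 was 3.90 within FACS and 3.26 within hand-picked batches, and that of Pfkp 4.01 and 3.97.

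**Figure D2:**
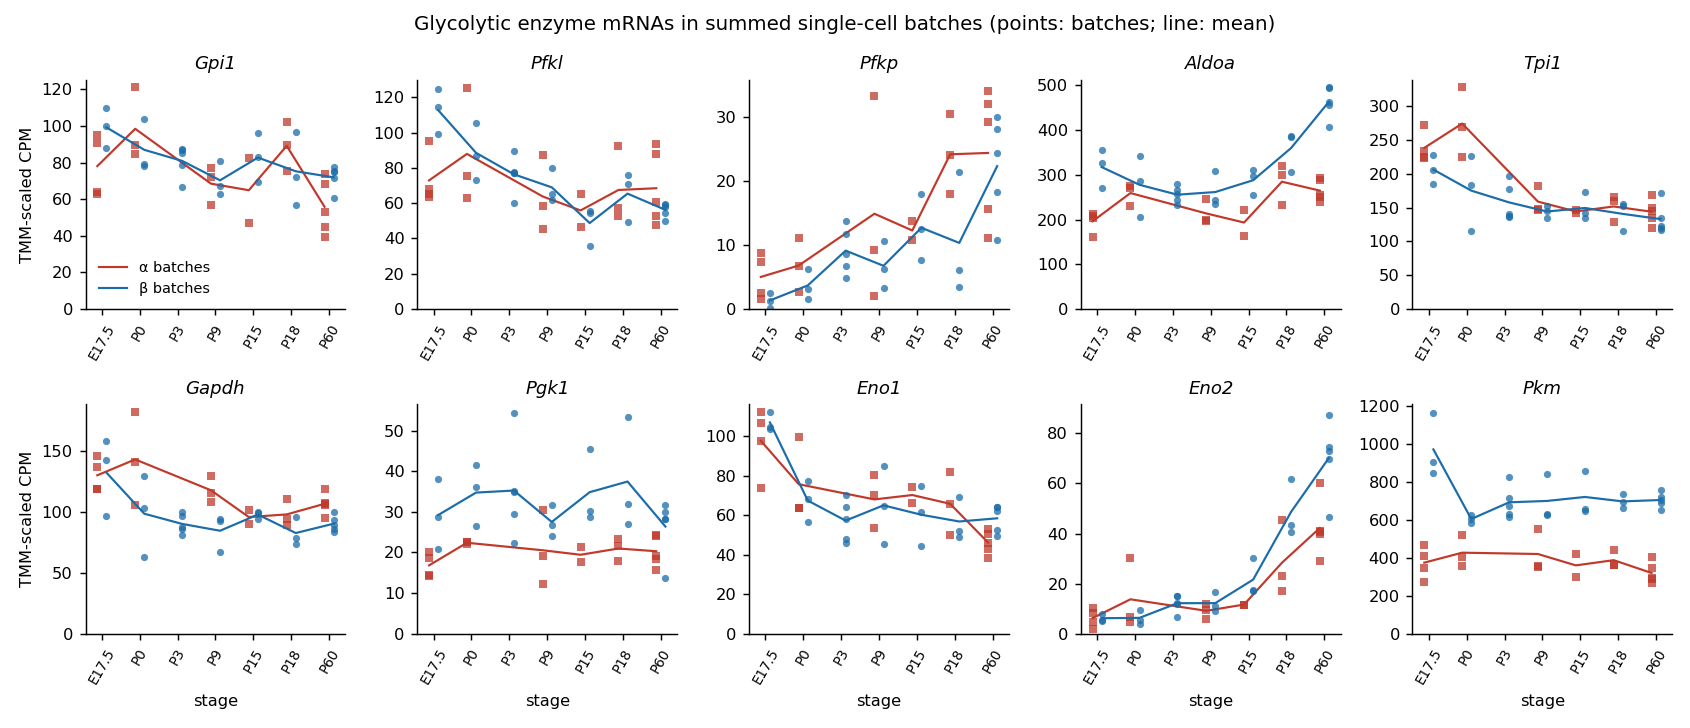
Levels of the 10 glycolytic genes in single-cell batches of α and β cells by stage, in TMM-scaled CPM on linear axes that differ between genes; points are batches and lines join stage means. Eno2 is high at P60 in both cell types, with 28.9 to 60.3 CPM in α cells and 46.5 to 87.3 CPM in β cells, and Pkm lies lower in α than in β cells at each shared stage.

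In α cells 5 of the 10 genes were called between P60 and E17.5, against 9.97% of all genes tested, with Eno2, Pfkp and Aldoa higher and Eno1 and Tpi1 lower. The median log2 change of the 10 was -0.21, against 0.00 over all genes. Over any stage 5 were called (Tpi1, Eno2, Eno1, Aldoa and Gpi1), against 10.5% of all genes. Between P60 and E17.5, 5 of 6 cycling markers were called lower in α cells (median log2 change -6.60). So were 1 of 5 mesenchymal (median -3.72) and 1 of 4 duct markers (median -0.26). Of 9 acinar markers 1 was called, lower, while 7 changes were positive (median 2.16). The part of these shifts in the α changes of the 10 genes was not tested.

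Eno2 had 41.2, 28.9, 40.7, 60.3 and 39.9 CPM in the 5 α batches of P60, against 4.78, 10.2, 1.75 and 8.12 CPM in the 4 of E17.5. The lowest P60 batch stood well above the highest E17.5 batch, and the log2 change was 2.80 (SE 0.47, adjusted p = 6.77e-05). By stage Eno2 averaged 6.23 ± 3.73 CPM (E17.5), 13.7 ± 14.2 for P0, 9.14 ± 3.06 for P9, then 11.6 ± 0.0282 for P15, 28.3 ± 15.0 for P18 and 42.2 ± 11.3 in P60 batches (SD, n = 4, 3, 3, 2, 3 and 5 batches). The P0 and P9 batches overlapped those of E17.5, while both P15 batches (11.6 CPM each) lay above all 4 of E17.5.

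Eno1 had 50.3, 38.5, 46.1, 53.0 and 43.0 CPM in the α batches of P60, against 107, 74.0, 97.7 and 113 CPM at E17.5. It fell in α cells as in β cells, without overlap, with a log2 change of -1.13 (SE 0.18, adjusted p = 4.49e-05). Tpi1 had 119.98, 169, 135, 145 and 149.9 CPM at P60, against 225, 222, 234 and 271.5 CPM at E17.5. All P60 batches were lower (log2 change -0.69, SE 0.16, adjusted p = 0.00275), and the calls of Eno1, Eno2 and Tpi1 held with each of the 9 batches left out in turn.

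Pfkp had 11.1, 32.0, 29.2, 15.6 and 34.2 CPM in the α batches of P60, against 7.41, 1.54, 8.71 and 2.45 CPM at E17.5. The groups did not overlap, although both varied widely, and the change of 2.31 (SE 0.69, adjusted p = 0.0252) was lost without E17.5 batch 2 or 4 or P60 batch 5 (adjusted p up to 0.0968). Aldoa had 288, 292, 238, 255 and 250.6 CPM at P60, against 212, 162, 208 and 202 CPM at E17.5. All P60 batches were higher (log2 change 0.45, SE 0.14, adjusted p = 0.0285), but the call ended without E17.5 batch 2 or P60 batch 1 or 2 (adjusted p up to 0.109). The direction turned to -0.13 with ERCC spike-in scaling and to -0.31 and -0.16 with equally weighted cells and no TMM scaling (log2 of the mean and mean log2), where the medians of all genes were -0.55, -0.45 and -0.41. The 5 genes not called were Gpi1 (log2 change -0.51, adjusted p = 0.0778), Pkm (-0.30), Gapdh (-0.29), Pfkl (-0.14) and Pgk1 (0.25). All 5 called changes had the same sign within FACS batches (1 call, Eno2) and within hand-picked batches (2 calls, Eno1 and Tpi1), which are parts of the batches that gave the 5 calls. Between P60 and P9 the α cells gave 1 call, Eno2 (2.23, adjusted p = 0.021, lost without P9 batch 3 or 4), against 0.847% of all genes, and between P9 and E17.5 edgeR gave 0, against 3.48% of all genes, with 3 at an unadjusted p under 0.05 and 1 called by DESeq2.

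**Figure D3:**
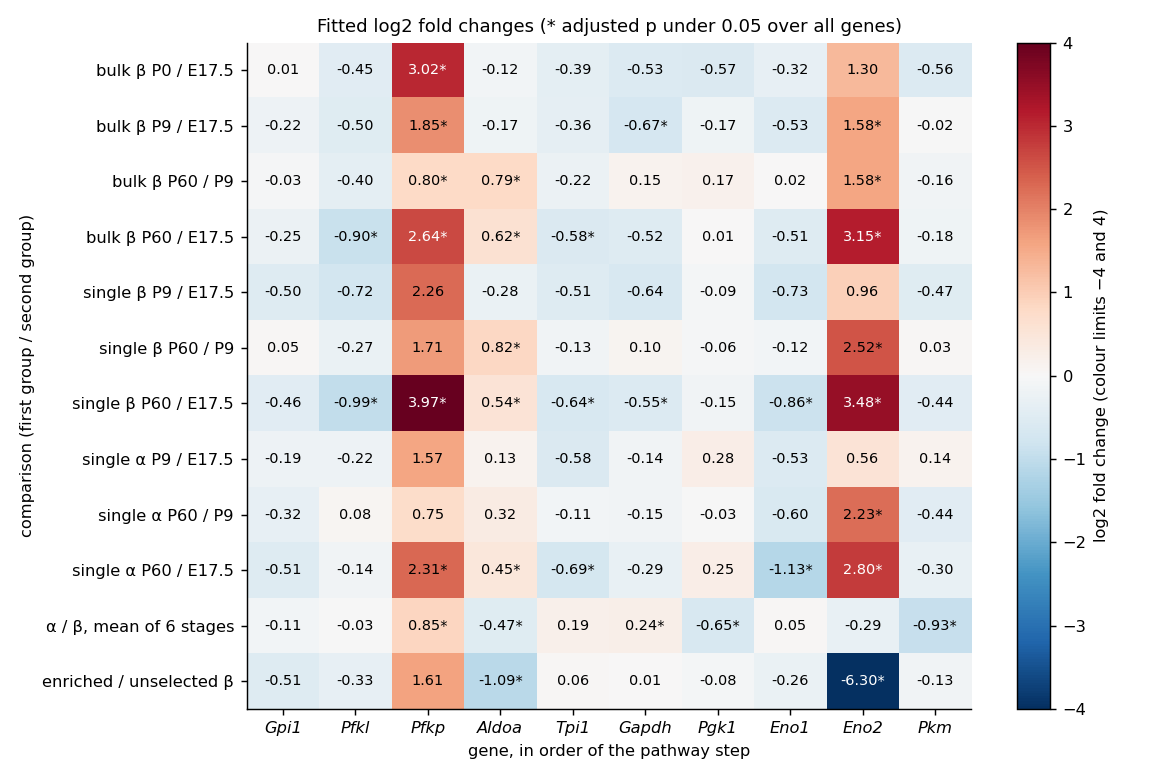
Log2 change of each of the 10 genes in each comparison, from edgeR, as coloured cells with the value printed and a star where the gene was called; rows are comparisons and columns are genes in pathway order. The Eno2 value of the enriched cells includes a batch with 0 reads, depends on the prior count and is no bound. Eno2 and Pfkp are higher at P60 in bulk β, single α and single β cells (2.31 to 3.97), and the largest negative difference of α from β cells is that of Pkm (-0.93).

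Within 2 of the steps the shares of the isozyme genes differed between stages when levels were divided by gene length (CPM per kb). Of the summed enolase level of bulk β cells, Eno2 held 3.59% (E17.5), 9.27% for P0, 7.70% for P3, 12.3% for P9, then 17.9% for P15, 16.5% for P18 and 28.3% in the P60 libraries. Eno1 held 51.3% at P60 against 81.9% at E17.5, and Eno3, the muscle form, 20.4% against 14.5%. In single β cells Eno2 held 43.6% ± 7.59 of the enolase level at P60, against 3.79% ± 0.603 at E17.5 (SD, n = 5 and 3). At P60 the level per kb of Eno2 was 25.1 ± 5.31 and that of Eno1 28.9 ± 3.48, so the 2 did not differ beyond their spread, while at E17.5 they were 2.21 ± 0.533 and 52.8 ± 2.36. In α cells the share of Eno2 was 38.1% ± 4.17 at P60, against 4.16% ± 2.88 at E17.5 (SD, n = 5 and 4).

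Of the phosphofructokinase level per kb in bulk β cells, Pfkp held 8.45% at P60 and 1.35% at E17.5, Pfkl 31.2% and 57.9%, and Pfkm, the muscle form, 60.3% and 40.7%. In single β cells Pfkp held 14.1% ± 4.16 at P60 and 0.721% ± 0.619 at E17.5, and Pfkl 45.8% ± 8.63 and 75.6% ± 6.72 (SD, n = 5 and 3). In single α cells Pfkp held 13.4% ± 3.61 at P60 and 3.60% ± 2.75 at E17.5, and Pfkl 49.0% ± 9.71 and 61.8% ± 3.49 (SD, n = 5 and 4). The pyruvate kinase step was served mainly by 1 gene, with Pkm at 97.0% to 99.4% of the pyruvate kinase level over the groups of libraries.

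**Figure D4:**
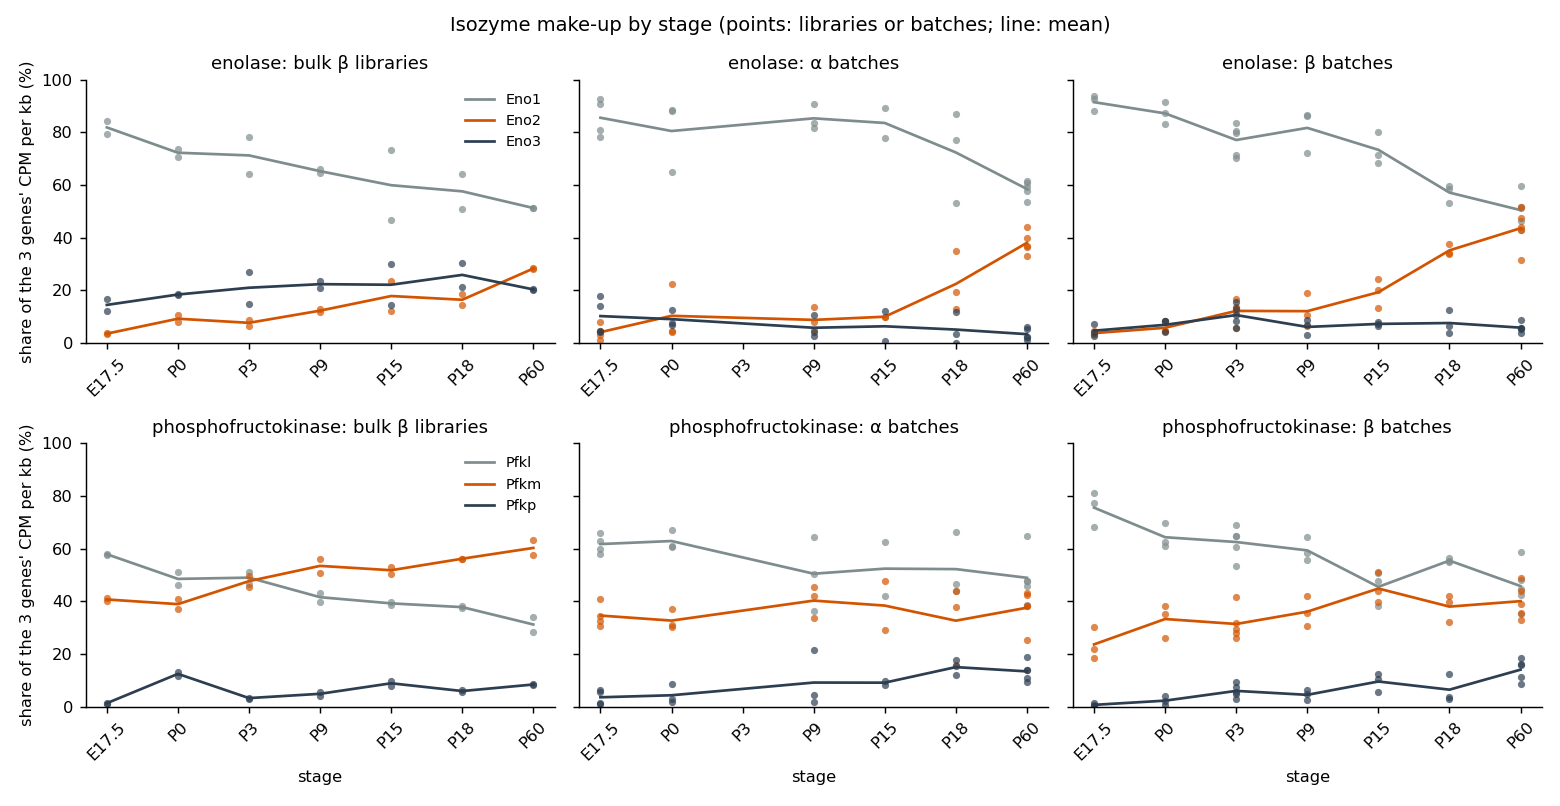
Share of each isozyme gene in the summed CPM per kb of the enolases and the phosphofructokinases, in percent, by stage in bulk β, single α and single β cells; points are libraries or batches and lines join stage means. The Eno2 share reaches 28.3% in bulk β, 38.1% in single α and 43.6% in single β cells at P60.

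Per length, Pkm was the most abundant of the 10 in bulk β cells at both ends of development. At P60 the levels per kb ran Pkm 292, Aldoa 236, Gapdh 167, Tpi1 57.7, Eno1 50.3, Pgk1 49.6, Gpi1 43.4, Eno2 27.7, Pfkl 16.1 and Pfkp 4.35. At E17.5 the order was Pkm 330, Gapdh 240, Aldoa 153, Tpi1 86.4, Eno1 71.6, Gpi1 51.6, Pgk1 49.3, Pfkl 30.1, Eno2 3.12 and Pfkp 0.694. Eno1 (SD 6.14) and Pgk1 (SD 15.8) did not differ beyond their spread at P60, nor did Gpi1 (SD 4.10) and Pgk1 (SD 4.98) at E17.5. In single cells at P60, Aldoa stood at 171 ± 15.5 and Pkm at 132 ± 22.6 per kb in α cells, and Aldoa at 299 ± 23.3 and Pkm at 290 ± 16.5 per kb in β cells (SD, n = 5 each), so the pair did not differ beyond its spread in β cells.

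The comparison of α with β cells, averaged over the 6 stages both have, asked which enzymes differ between the cell types. It called 5 of the 10, against 28.8% of all genes: Pkm, Pgk1 and Aldoa lower in α cells and Pfkp and Gapdh higher. The median log2 difference of the 10 was -0.07, against 0.05 over all genes. Acinar markers were called higher in α cells in 7 of 9 genes (median log2 difference 2.85) and erythroid markers in 4 of 5 (median 4.07). Of 4 duct markers 1 was called, lower in α cells, and of 6 cycling markers 0. The part of other cell types in these differences was not tested.

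Pkm gave the largest of the 3 negative differences. It had 293, 348, 403, 287 and 269 CPM in the α batches of P60, against 719, 649.5, 759.7, 690.2 and 704 CPM in the β batches. At E17.5 it had 344, 274, 409.9 and 469 CPM in α cells, against 1164, 906 and 844 CPM in β cells. At each of the 6 shared stages every α batch was below every β batch, and the log2 difference was -0.93 (SE 0.07, adjusted p = 5.09e-14).

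Pgk1, which makes the first ATP of the payoff phase, had 19.2, 24.2, 18.3, 24.1 and 15.7 CPM in the α batches of P60, against 28.3, 13.7, 31.7, 30.0 and 28.2 CPM in the β batches. β batch 2 lay below all α batches there, while at E17.5, P0, P15 and P18 all α batches lay below all β batches. The log2 difference was -0.65 (SE 0.13, adjusted p = 0.00019). Aldoa differed by -0.47 (SE 0.07, adjusted p = 3.12e-07), and its α batches lay below all β batches at E17.5, P15 and P60. These 3 calls held with each of the 40 batches of the shared stages left out.

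Gapdh was higher in α cells by 0.24 (SE 0.08, adjusted p = 0.0171), with 107 ± 8.24 CPM in α and 90.5 ± 6.38 CPM in β cells at P60 (SD, n = 5 each), but the direction turned to -0.12 with spike-in scaling, where the median of all genes was -0.29. Pfkp was higher by 0.85 (SE 0.31, adjusted p = 0.0378), and the levels at E17.5 were 5.03 ± 3.56 CPM in α and 1.35 ± 1.12 CPM in β cells (SD, n = 4 and 3), while those at P60, 24.4 ± 10.4 and 22.4 ± 7.86 CPM (n = 5 each), lay within each other's spread. Leaving out 1 of the 40 batches kept the call of Gapdh in 27 cases and that of Pfkp in 19 (log2 difference 0.64 to 0.99). Within FACS batches the differences were -1.15 for Pkm, -0.88 for Pgk1, -0.54 for Aldoa, 1.23 for Pfkp and 0.05 for Gapdh, and within hand-picked batches -0.72, -0.56, -0.41, 0.53 and 0.36 in the same order. Tpi1 (0.19, adjusted p = 0.0549), Eno1 (0.05), Pfkl (-0.03), Gpi1 (-0.11) and Eno2 (-0.29) were not called.

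Whether development from E17.5 to P60 differs between the cell types was tested as the α change minus the β change, and 0 of the 10 were called by edgeR and 0 by DESeq2 or limma, against 3.67% of all genes by edgeR. Of the 10, Pfkl alone had an unadjusted p under 0.05 (difference 0.86, SE 0.31, p = 0.00891, adjusted p = 0.125), with 60.4, 87.8, 47.7, 52.7 and 93.8 CPM in α cells at P60 and 65.0, 63.4, 68.0 and 95.4 CPM in α cells at E17.5. The P60 and E17.5 α batches overlapped, while the β batches given above did not. For Eno2 the difference was -0.68 (SE 0.63) and for Pfkp -1.66 (SE 0.96).

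The proliferative-enriched β cells, which ask how cycling β cells differ from unselected ones of the same stage, had 2 of the 10 genes called, both lower, where 0.245% of all 20445 genes tested were called. The median log2 difference of the 10 was -0.19, also with Eno2 at the bound given below, against -0.33 over all genes. Each stage has 1 enriched batch, assumed to vary like the others, and leaving out the P0 enriched batch ended both calls.

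Aldoa had 119 CPM in the enriched P0 batch, against 344, 289 and 204 CPM in the unselected P0 batches, and 141 CPM in the enriched P9 batch, against 304, 239 and 245 CPM in the unselected P9 batches. Both enriched batches lay below all unselected ones (log2 difference -1.09, SE 0.17, adjusted p = 0.000978; -0.93 and adjusted p = 0.377 without the P0 enriched batch). With spike-in scaling the direction turned to 0.06, where the median of all genes was 0.67. Among single enriched cells the Aldoa level, here without TMM scaling, ranged from 3.62 to 431 CPM (median 42.1) at P0 and from 0 to 378 CPM (median 79.9) at P9.

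Eno2 had 0 reads of 9.86 M in the enriched P0 batch, which allows up to 0.304 CPM, without TMM scaling, at a floor of 3 reads for the batch. The unselected P0 batches had 5.50, 9.74 and 3.84 CPM with TMM scaling. Over the summed reads, without that scaling, the 71 unselected P0 cells held 7.35 CPM of Eno2. Against this value Eno2 was at least 24.2-fold lower in the enriched P0 cells, a bound on read counting that leaves out the sampling of 9 cells. Among the 71 unselected P0 cells only 22 (31.0%) held a read of Eno2, with 22.2% in the lowest batch. The enriched P9 batch had 2.31 CPM, from 28 reads in 2 of 12 cells, against 8.86, 16.9 and 11.3 CPM in the unselected P9 batches. The enriched value was the lowest at each stage, with an adjusted p of 0.00227 (0.826 without the P0 enriched batch), and floors and intervals cover counting error only because PCR copies of reads are not independent molecules. The summed cycling markers (Mki67, Top2a, Cdk1, Pbk, Foxm1 and Ccnb1, of which 3 served to choose the cells) were 1424 CPM in the enriched P0 batch, against 209, 41.7 and 950 CPM in the unselected ones, and 1370 CPM in the enriched P9 batch, against 81.4, 225 and 333 CPM in the unselected ones.

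Pfkp did not pass the test in the enriched cells. It had 19.3 CPM in the enriched P0 batch, against 6.35, 3.19 and 1.61 CPM in the unselected P0 batches, and 12.8 CPM in the enriched P9 batch, against 10.6, 3.41 and 6.30 CPM in the unselected P9 batches. Both enriched batches lay above all unselected ones, with a log2 difference of 1.61 (SE 0.73, adjusted p = 0.546). The remaining 7 genes differed by -0.51 (Gpi1) to 0.06 (Tpi1), and none of these was called.

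**Figure D5:**
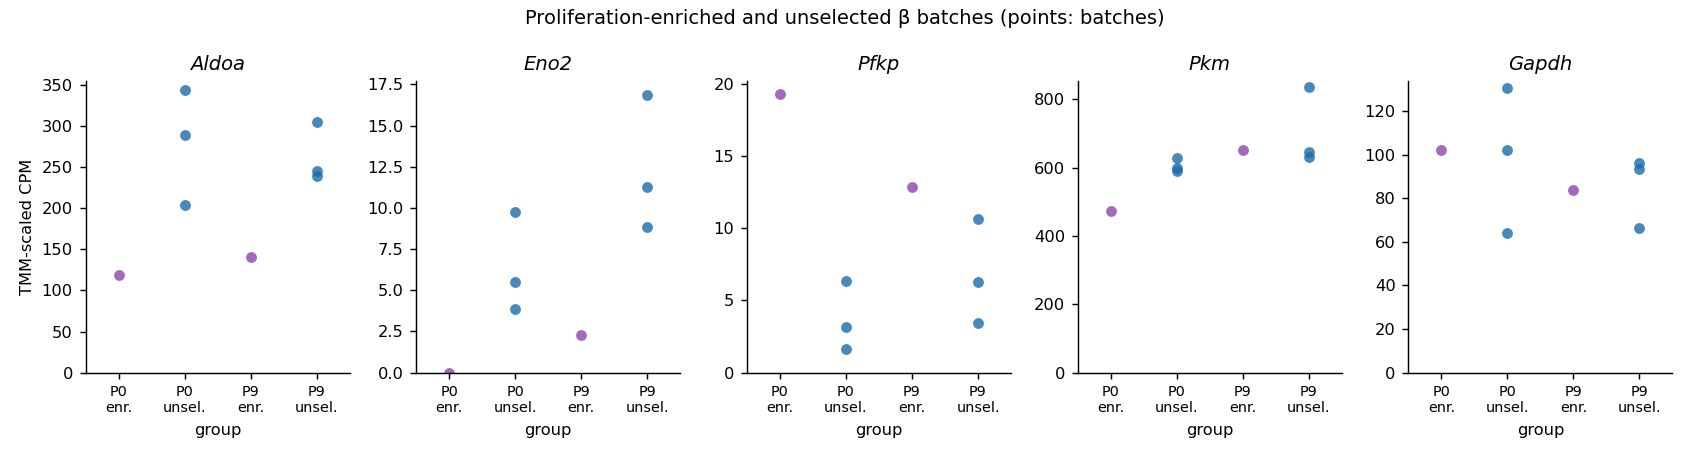
Levels of Aldoa, Eno2, Pfkp, Pkm and Gapdh in proliferative-enriched and unselected β cell batches at P0 and P9, in TMM-scaled CPM; each point is a batch. Aldoa is lower in both enriched batches (119 and 141 CPM) than in the unselected ones, and Eno2 is at 0 and 2.31 CPM.

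In single cells, more cells held reads of the 2 isozyme genes at P60. Eno2 had a read in 48 of 83 α cells (57.8%) at P60, against 20 of 65 (30.8%) at E17.5, and in 110 of 129 β cells (85.3%) at P60, against 17 of 57 (29.8%) at E17.5. Pfkp had a read in 34 of 83 α cells (41.0%) at P60, against 15 of 65 (23.1%) at E17.5, and in 63 of 129 β cells (48.8%) at P60, against 4 of 57 (7.02%) at E17.5. By α batch the Eno2 share was 45.0% to 75.0% at P60 and 25.0% to 50.0% at E17.5. The Pfkp share was 25.0% to 50.0% and 16.7% to 26.7%, so α batches of the 2 stages overlapped for both genes. By β batch the shares were 75.9% to 94.9% and 20.0% to 38.1% for Eno2. For Pfkp they were 34.5% to 57.7% and 4.76% to 20.0%, without overlap. When each cell was thinned to 500000 reads, the P60 shares were 56.6% for Eno2 and 36.1% for Pfkp in α cells, and 83.7% and 48.1% in β cells. Levels within single cells are CPM without TMM scaling and differ in scale from the batch levels. Among β cells at P60, 3 in 4 held at least 18.3 such CPM of Eno2 (upper quartile 72.5, highest 169.6), while the median cell at E17.5 held none. Pkm had a read in every α and β cell at both stages.

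Correlations of log2 CPM among the 10 genes had both signs; they are descriptions over points that share libraries and stages. Over the 14 bulk libraries Eno1 and Tpi1 had r = 0.81 and Eno2 and Tpi1 r = -0.73. Over the α batches Eno1 and Eno2 had r = -0.78, and over the β batches Eno2 had r = 0.73 with Pfkp and -0.67 with Pfkl. Between cells of 1 batch Eno1 and Pkm had a median r of 0.215 in α batches (positive in 10 of 13 with at least 15 cells) and 0.311 in β batches (positive in 19 of 19), whereas Eno1 and Eno2 had a median r of 0.0465 in β batches.

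Other genes whose levels followed those of a member most closely were picked by Pearson's r of log2 CPM among genes averaging at least 20 CPM. Over the 14 bulk libraries (7260 candidates) these were Psap (0.96), Hexa (0.95) and Stat6 (0.95) for Eno2, Cyp4v3 (0.90), Tgfbr3 (0.90) and Tmem65 (0.89) for Pfkp, Mov10 (0.93), Klhdc8b (0.92) and Brd7 (0.91) for Pfkl and Itm2c (0.96), Txndc15 (0.89) and Prr13 (0.89) for Aldoa. Over the 45 single-cell batches (5552 candidates) they were Syt4 (0.81), Nell1 (0.80) and Ghitm (0.76) for Eno2, Cd63 (0.73), Sar1b (0.72) and Srpr (0.72) for Aldoa, Ttc3 (0.75), Cct3 (0.73) and Fkbp3 (0.73) for Tpi1 and Gnb1 (0.68), Trim28 (0.68) and Cct5 (0.64) for Eno1.

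A list of 24 further glycolysis genes (hexokinases, the other isozymes, Pgam, Ldha and Ldhb, and the kinases that make fructose 2,6-bisphosphate), of which 20 were tested, set the 10 in their pathway. In bulk β cells 7 of the 20 were called between P60 and E17.5, 2 higher and 5 lower, near the 29.1% of all genes, with a median log2 change of -0.31. Pfkm rose by 0.55 (adjusted p = 0.0155), and Ldha fell by 2.53 (adjusted p = 0.0184) and Pfkfb3 by 1.62 (adjusted p = 0.0236) on the log2 scale, although each of these 3 calls was lost in at least 2 of the 4 fits with a library left out, and they stand beside the changes of acinar, mesenchymal, duct and endothelial markers given above. In single α cells 2 of the 20 were called, 1 higher (Hk1) and 1 lower, near the 9.97% of all genes, and in single β cells 1 was called, lower, against 6.97% of all genes. The median log2 changes were -0.09 in α and 0.08 in β cells.

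Between α and β cells 6 of the 20 were called, 1 higher and 5 lower in α cells, near the 28.8% of all genes, with a median log2 difference of -0.16. Hk1, the hexokinase that β cells are known to keep low, had 4317 reads in 328 α cells and was listed at 0 in all 538 β cells. The bulk β libraries held 1.04 ± 0.835 CPM of Hk1 at P60 and 1.30 ± 0.581 CPM at E17.5 (SD, n = 2 each), and whether the single β cells were selected on this gene before deposit is not given in the sources used here. Its α level was 29.2 ± 11.1 CPM at P60 and 1.58 ± 2.04 CPM at E17.5 (SD, n = 5 and 4), a change (adjusted p = 0.0434) that was no longer called without any 1 of those 9 batches. Pfkfb2 (-1.79, adjusted p = 3.34e-12) and Pgam1 (-0.49, adjusted p = 1.28e-05) were lower in α cells. In the proliferative-enriched cells 0 of the 21 tested were called by edgeR, with 2 at an unadjusted p under 0.05.

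The neighbouring pathways were read the same way between P60 and E17.5, with the genes named here picked after their values were seen, and against 29.1% of all genes called in bulk β, 9.97% in single α and 6.97% in single β cells. The bulk pentose phosphate count and the HIF counts in single α and β cells were near those shares. The gluconeogenesis counts in single α and β cells rest on 1 gene each. Of 7 pentose phosphate genes, 2 were lower in bulk β cells (Pgd and Rpia), 2 in single α cells (Taldo1 and Tkt) and 3 in single β cells (Pgd, Pgls and Taldo1), and none was called higher. Their median log2 changes were -0.33, -0.49 and -0.74. Of 7 gluconeogenesis genes, 3 were higher in bulk β cells (G6pc2, Pck2 and Pcx), 1 in single α cells (Pck2) and 1 in single β cells (G6pc2), with median log2 changes of 1.03, 0.70 and 0.03. G6pc2, the islet glucose-6-phosphatase, had a log2 change of 2.56 (SE 0.26, adjusted p = 5.84e-05) in the bulk. Of 16 further targets of the hypoxia factor HIF, which also acts on several of the 10 genes, 3 were higher and 4 lower in bulk β cells, and in single cells 2 of 15 were called in α cells and 1 of 15 in β cells, with median log2 changes of -0.17, -0.13 and -0.30.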

How the data were processed

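Gene expression was measured by RNA-seq in bulk β cell libraries (poly(A) RNA, strand-specific kit) and in single α and β cells (Smart-seq2, neither stranded nor with molecular identifiers), per the labels' protocols. The values used are the deposited raw read counts per gene. The submitters' processing notes name TopHat2 2.1.0, HTSeq 0.6.0, DESeq 1.20.0 and the builds GRCm38 and mm10, and the strand setting of the counting is not given in the sources used here. Gene lengths are the deposited ones; TPM values of the authors were left aside.

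The 92 ERCC rows were kept out of library sizes and made up 2.72% of the reads in the median cell. Single-cell counts were summed per labelled batch, since cells of a batch are not replicates. Of 917 cells, 26 multihormone and 4 Ngn3-GFP cells were not used. Tests were edgeR 4.0.16 quasi-likelihood fits (R 4.3.3) with TMM scaling and edgeR's default low-count filter, one fit for the bulk, one for the unselected batches and one that adds the enriched batches, with collection method as a covariate in single-cell fits. Adjusted p-values are Benjamini-Hochberg over all 16086, 18537 or 20445 genes tested, with 0.05 as threshold. The common dispersions were 0.0664, 0.648 and 0.664. The procedure was tested on simulated data. DESeq2 1.42.0 and limma 3.58.1 served as alternatives.

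The 10 members are named in every comparison. Of the further glycolysis genes, the called ones with the 4 smallest p were named, and the nearest genes were given for 4 members with the smallest any-stage p. Members and lists were chosen with earlier results of these data known. Some genes that these rules would name, and values that rest on them, are not reported here.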

Additional observations from a re-analysis of the deposited data

Results flagged for a closer look

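Within groups of 4 or 5 batches, 40 sets of values (1 gene in 1 group) were examined for a batch far from the others, where chance sets apart about 1 in 20 groups, and 2 were set apart. Pfkl stood at 95.4 CPM in α batch 4 of E17.5, against 63.4 to 68.0 CPM in the other 3. That batch holds 6 hand-picked cells, while the other 3 were FACS-sorted, and the part of the collection method was not tested for this value. Pgk1 stood at 13.7 CPM in β batch 2 of P60, which holds 14 hand-picked cells, against 28.2 to 31.7 CPM in the other 4, of which 2 were hand-picked and 2 FACS-sorted.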

How the results depend on the processing

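Of the values of the 10 genes over the comparisons, 892 kept direction and side of the threshold under the alternatives other than leaving out 1 sample, 63 gained a call, 52 lost it, 62 moved and 11 turned; with 1 library or batch left out the numbers were 1124, 9, 83, 54 and 0. For the further glycolysis genes, 74 stayed and 12 lost the call, and 178 and 24 with 1 sample left out.

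Counts of called genes among the 10 moved as follows. At P0 against E17.5 in bulk, DESeq2 gave 4 and no low-count filter 3. In β cells, spike-in scaling gave 2 over any stage, 2 at P60 against E17.5 and 1 at P60 against P9. FACS-sorted batches alone gave 1, 0 and 0 and hand-picked ones 1, 2 and 0. In α cells spike-in scaling gave 3, 3 and 0 for the same comparisons, FACS alone 1, 1 and 0 and hand-picking alone 1, 2 and 0. With cells weighted equally and CPM not TMM-scaled (limma), any stage gave 10 and 9 in β and 8 and 9 in α cells. In the same fits P9 against E17.5 gave 7 and 7 in β and 7 and 6 in α cells, α P60 against E17.5 gave 8 (log2 of the mean) and α P60 against P9 gave 2 (mean log2). Those fits called 4534 and 4259 of all genes over any stage in β and 6349 and 7688 in α cells, and at P9 1872 and 2191 in β (9.08% and 8.95% of them higher) and 4202 and 5473 in α cells (8.50% and 6.80% higher), with medians of all genes of -0.31, -0.21, -0.43 and -0.34. At P9 against E17.5 DESeq2 gave 1 in α and 2 in β cells. Between α and β cells, FACS alone, hand-picking alone and no filter gave 3 each.

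With 1 sample left out, the bulk counts ranged from 2 to 4 over any stage, 3 to 4 at P60, 1 to 2 at P0, 1 to 1 at P9 (all against E17.5) and 0 to 1 at P60 against P9. In β cells they ranged from 4 to 6, 3 to 7 (P60), 0 to 1 (P9) and 1 to 2 (P60 against P9), and in α cells from 3 to 6, 3 to 5, 0 to 0 and 0 to 1. Between α and β cells they ranged from 3 to 6, for the α minus β change 0 to 0, and for enriched cells 0 to 2.

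The fits with equal cell weights also left out TMM scaling, and no fit changed the weighting alone. The TMM factors of β batches were 1.19994 to 1.32392 at E17.5 and 0.695722 to 0.797925 at P60. Those of α batches were 1.56387 to 1.7373 and 0.825979 to 1.12219. Leaving these factors out moves changes at P60 against E17.5 downward, and the added part of the weighting was not tested. In the fits with equal cell weights the direction turned for Aldoa at P60 against E17.5 (-0.24 and -0.27 in β cells, -0.31 and -0.16 in α cells). It also turned for Aldoa (-0.62) and Pkm (-0.56 and -0.54) in α cells at P9 against E17.5 and for Pfkl between α and β cells (0.28). Directions turned with spike-in scaling for Aldoa in α cells at P60 against E17.5 (-0.13), Gapdh between α and β cells (-0.12) and Aldoa in enriched cells (0.0624). The cause was not tested.

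Calls over all genes moved too. At P60 against E17.5 they ranged from 571 to 7715 in α cells (1848 as reported) and from 150 to 4679 in β cells (1292), and with 1 library left out from 2522 to 3032 in bulk (4676). Spike-in scaling gave 181 higher and 1793 lower in α cells, against 798 and 1050 as reported, 1302 and 4196 between α and β cells, against 2621 and 2710, and 671 and 13 in enriched cells, against 9 and 41.

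Library and batch numbers were not used as pairs in the reported fits. Same-numbered deviations had a median r of 0.0486 over 42 bulk pairs (-0.139 to 0.427, 14 over 0.1). Over 217 single-cell pairs the median r was 0.00822 (-0.0722 to 0.1). With 2 libraries per bulk stage, the 2 deviations of a stage mirror each other, so the bulk pairs are not separate and cannot settle whether numbers pair libraries. With the number as a replicate block, the counts were 4, 6, 1, 3 and 3 in bulk (any stage, P60, P0 and P9 against E17.5, P60 against P9), where Gapdh gained a call at P60 (-0.53, adjusted p = 0.0428). They were 5, 6, 1 and 2 in β cells, where Gapdh lost its call at P60 (adjusted p = 0.0715) and Eno1 gained one at P9 (-0.76, adjusted p = 0.0313), 4, 4, 0 and 1 in α cells, where Aldoa lost its call at P60 (adjusted p = 0.0593), 5 between α and β cells, 0 for the α minus β change and 2 in enriched cells. With 2 libraries per bulk stage and 1 enriched batch per stage, few samples limit the precision.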
